A study of Caenorhabditis elegans with 9 samples.

Results

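The ligand-gated ion channel genes of *C. elegans* described here are the nicotinic acetylcholine receptor subunits and their relatives named acr, with *unc-29*, *unc-38*, *unc-63*, *lev-1*, *lev-8*, *deg-3* and *eat-2*, the lgc genes with *exp-1* and *mod-1*, and the ionotropic glutamate receptor genes named glr and nmr. They were chosen by gene name alone, as entries of the expression table that carry a single gene symbol. This gave 83 of 40313 entries. Another 12 channel genes, among them *unc-49*, *des-2*, *nmr-1* and *glr-6*, share an entry with an overlapping gene and are not counted with the 83.

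A ligand-gated ion channel opens when a transmitter binds to it and lets ions cross the cell membrane. Subunits of the Cys-loop superfamily assemble into a ring around a pore that passes cations or chloride, and in worms they serve as receptors for acetylcholine, GABA, serotonin, dopamine and tyramine. The AMPA, kainate and NMDA types of glutamate receptor form a separate family of cation channels. Such receptors carry signals from motor neurons to body wall muscle, take part in the pacing of pharyngeal pumping, and connect the interneurons that command locomotion.

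RNA was sequenced from whole hermaphrodites of 3 genotypes: N2, the wild type, *daf-1*(m40) mutants, and double mutants with *daf-1*(m40) and *daf-3*(mgDf90), which share the *daf-1* allele of the single mutants. DAF-1 is a receptor of the DAF-7 TGFβ pathway and DAF-3 is a SMAD protein that acts downstream of it, so *daf-1* vs. N2 asks what changes without the receptor, and *daf-1* vs. the double mutants asks what changes when DAF-3 is also removed. Each genotype had 3 biological replicates, called batches b1 to b3 in the study, and each replicate was a synchronized population raised at 16 °C until L4 and then kept at 25 °C, for 25 h by the sample labels. *daf-3* was at 18.8 to 22.5 FPKM in the N2 and *daf-1* libraries and at 0, 0.0147 and 0 FPKM in the double mutants. *daf-1* itself was at 21.6 to 23.7 FPKM in N2 and 12.8 to 14.5 FPKM in both mutants.

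FPKM values are fragment numbers scaled by transcript length and by the mapped total of the library, estimated by the authors in each library, so levels of different genes can be compared per length. Read counts were not used here and the depth behind a low value is therefore unknown. Only entries with 0.5 FPKM or more in 2 or more libraries entered the test, which was limma on log2(FPKM + 0.25), a scale that understates the fold change of low genes. A DEG (differentially expressed gene) had to change by 2-fold or more with an adjusted p under 0.05, where the Benjamini-Hochberg adjustment ran over every entry in the test. Replicate 3 of the double mutants stood apart from the other libraries and was left out by the study as a PCA outlier, so values with 8 libraries come first and values with all 9 follow. With 8 libraries the double mutants have n = 2 and batch 3 holds no double mutant, so that for them genotype and batch 3 are not balanced. All 15 neuron, 6 pharyngeal muscle and 8 germline markers had FPKM values above 0 in every library.

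Most channel genes were measured at low levels. The mean of the 9 libraries was at least 5 FPKM for 5 of the 83 genes, between 1 and 5 FPKM for 23 and below 1 FPKM for 55, with a median of 0.548 FPKM. The channel genes together made up 0.00852% to 0.0226% of the summed FPKM of each library. The 5 highest were *lgc-22* (mean 25.2 FPKM), *nmr-2* (14.9), *lgc-34* (9.78), *lgc-32* (7.51) and *unc-63* (5.09). All but 1 gene, *lgc-16*, were above 0 in some library, and 70 were above 0 in all 9.

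With 8 libraries 51 channel genes were tested, and with 9 libraries 54, the additions being *acr-3*, *acr-10* and *lgc-37*. A gene that reached the minimum only in the genotype where it was high is among those tested, so counts over the tested genes describe them and not the family of 83. The 32 genes not tested had means of at most 0.386 FPKM, and 19 of them were above 0 in every library. They include *acr-2*, whose product excites cholinergic motor neurons, at 0.156 to 0.514 FPKM. They also include *acr-23*, a betaine receptor, at 0.101 to 0.363 FPKM, *glr-3*, a glutamate receptor with a role in sensing cold, at 0.0289 to 0.190 FPKM, and *lgc-35*, a GABA-gated cation channel, at 0.201 to 0.559 FPKM. The 26 genes on the X chromosome were the most of any chromosome, but 11 of them were tested. A cluster of 8 lgc genes at X: 12065208 to 12128000 on the build WBcel235, used for all positions, held *lgc-23*, *lgc-24* and *lgc-13* to *lgc-18* and had means of 0 to 0.208 FPKM. No library reached more than 0.418 FPKM in this cluster.

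In the *daf-1* vs. N2 dataset 2 channel genes, *unc-38* and *eat-2*, were DEGs, both higher in *daf-1* mutants, and none was lower (the count at an unadjusted p below 0.05 was 5 higher and 0 lower by limma). Over all entries tested 6.27% were called higher and 0.953% lower. In *daf-1* vs. the double mutants 9 channel genes were higher in *daf-1* mutants, against 11.2% of all entries, and none was lower, against 1.43% (23 higher and 1 lower at an unadjusted p below 0.05). The 9 genes were *unc-38*, *lgc-20*, *lgc-21*, *lgc-22*, *glr-1*, *acr-12*, *acr-9*, *lgc-46* and *lgc-47*. In the double mutants vs. N2, *lgc-20* and *lgc-22* were lower, against 5.34% of all entries, and none was higher, against 3.56% (6 lower and 1 higher at an unadjusted p below 0.05). With all 9 libraries limma called no channel gene in any of the 3 datasets. At an unadjusted p below 0.05 it then had 3 higher in *daf-1* vs. N2, 3 higher and 1 lower in *daf-1* vs. the double mutants, and 0 in the double mutants vs. N2. The percentages of all entries called with 9 libraries were 3.97% higher and 0.640% lower in *daf-1* vs. N2, 0.640% and 0.532% in *daf-1* vs. the double mutants, and 2.35% and 0.489% in the double mutants vs. N2.

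The batch numbers are shared by the genotypes, and a fit of the 8 libraries with batch as a block called 3 channel genes higher in *daf-1* vs. N2 (*unc-38*, *eat-2* and *lgc-21*, against 7.26% of all entries) and 0 lower (1.01%). That fit called 8 higher in *daf-1* vs. the double mutants (9.49%), losing *acr-9*, and 0 lower (1.33%), and it called *lgc-20* and *lgc-21* lower in the double mutants vs. N2 (4.73%) and 0 higher (3.49%). With the block and all 9 libraries *unc-38* in *daf-1* vs. N2 was the only call (4.94% of all entries higher and 0.755% lower). The shares of all entries were then 0.863% higher and 0.611% lower in *daf-1* vs. the double mutants, and 2.52% higher and 0.604% lower in the double mutants vs. N2.

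After quantile normalization of the 8 libraries *unc-38* was the only channel gene called in *daf-1* vs. N2 (4.08% of all entries higher and 2.59% lower). Against the double mutants *unc-38*, *lgc-20*, *lgc-21* and *lgc-22* were called higher (6.30%) and *lgc-10*, a Cys-loop channel gene, lower (3.91%), at −1.19 with an adjusted p of 0.0290 where the values as deposited gave −0.47. *lgc-20* and *lgc-22* were called lower in the double mutants vs. N2 (4.62%, and 3.72% higher). Without a minimum fold *lgc-34* joined *unc-38* and *eat-2* in *daf-1* vs. N2 (13% of all entries higher and 15.6% lower). Against the double mutants 14 genes were then higher (17.7%) and 0 lower (19.3%), with *lev-8*, *acr-20*, *lgc-26*, *lgc-33* and *lgc-34* added, and the double mutants vs. N2 kept *lgc-20* and *lgc-22* as the 2 lower genes (8.90%, and 7.49% higher).

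**Figure D1:**
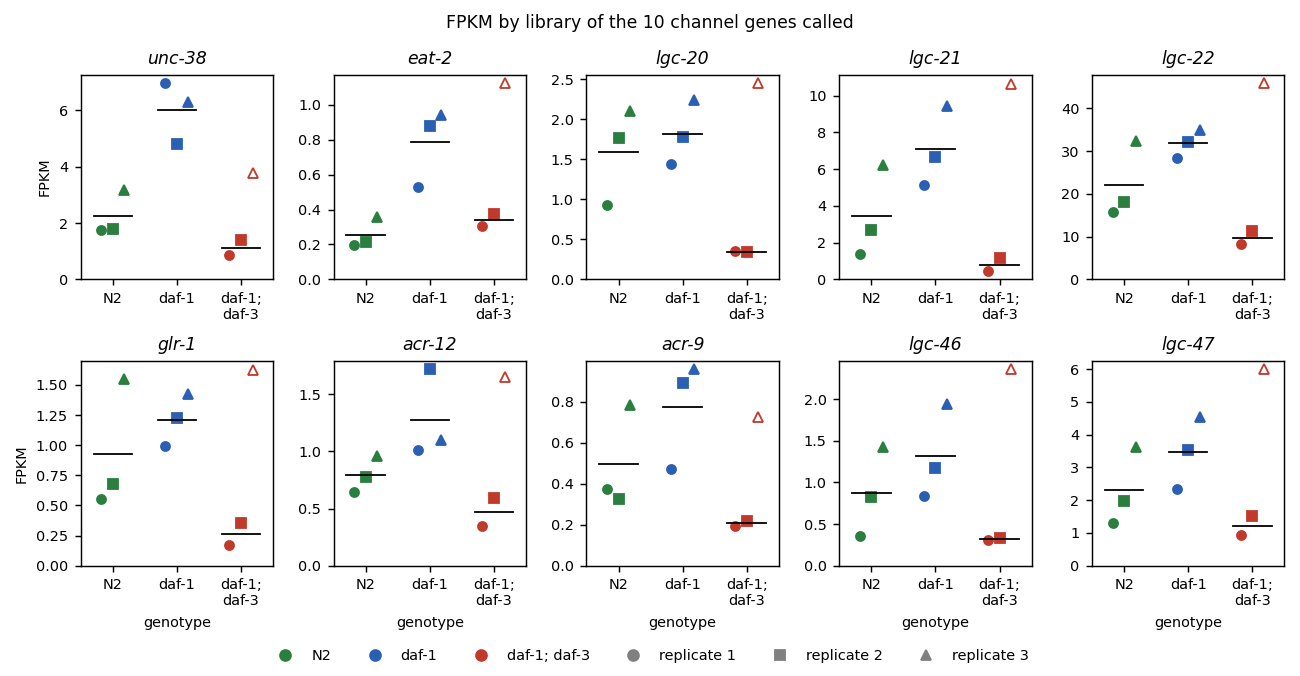
FPKM value in each library (vertical axes, each starting at 0) of the 10 channel genes called with 8 libraries, by genotype (horizontal axis), where symbols show the replicate, horizontal bars are means, and the open triangle is double mutant replicate 3, which is not in the mean. In *unc-38* all 3 *daf-1* libraries (4.81 to 6.97 FPKM) lie above every other library, while in the other 9 genes the open triangle lies within or above the range of the *daf-1* libraries.

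*unc-38* encodes a subunit of the levamisole-sensitive acetylcholine receptor of body wall muscle and lies at I: 4897620 to 4900974 on the minus strand. Its FPKM values were 1.75, 1.79 and 3.18 in N2, 6.97, 4.81 and 6.30 in *daf-1*, and 0.876, 1.38 and 3.79 in replicates 1, 2 and 3 of the double mutants. The *daf-1* libraries were above all other libraries, replicate 3 of the double mutants included, and the double mutants' replicates 1 and 2 were below N2. The limma log2 fold change was 1.36 against N2 (SE 0.276, adjusted p = 0.0120) and 2.19 against the double mutants (SE 0.308, adjusted p = 0.00397). Within batches 1, 2 and 3 the log2 difference was 1.85, 1.31 and 0.93 against N2 and 2.68, 1.63 and 0.70 against the double mutants, so that *daf-1* mutants were higher in every batch. With all 9 libraries limma gave the same fold change against N2 with an adjusted p of 0.0846, and 1.67 against the double mutants with an adjusted p of 0.119. With batch as a block in the fit of 9 libraries the difference from N2 was called (adjusted p = 0.0404) and that from the double mutants had an adjusted p of 0.0597. The call against N2 was also lost without N2 replicate 2 (adjusted p = 0.0509) or *daf-1* replicate 3 (adjusted p = 0.0501). The call against the double mutants held without any of the 8 libraries, but without double mutant replicate 1 or 2 the fit holds 1 library of that genotype. The difference of the double mutants from N2 was −0.83 (adjusted p = 0.105). In whole worms more RNA per cell and more cells of a type cannot be told apart. Of 9 body wall muscle markers, 8 have their own entry, and all 8 were tested. These 8 summed to 1403 to 1562 FPKM in N2, 2166 to 2642 in *daf-1* and 1691 to 2572 in the double mutants. In *daf-1* vs. N2, 1 of the 8 (*tni-3*) was called higher with 8 and with all 9 libraries (6.27% and 3.97% of all entries). Against the double mutants *myo-3* was called higher (11.2%), and none with all 9 libraries (0.640%). The part of these markers in the difference of *unc-38* was not tested.

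The other 4 subunits of the levamisole receptor did not pass both thresholds in any dataset with the 8 libraries. *unc-63* was at 4.05 to 6.48 FPKM in N2, 5.18 to 7.22 in *daf-1* and 2.82 to 5.79 in the double mutants, and *unc-29*, which is required for the receptor, at 1.44 to 2.30, 1.35 to 2.58 and 0.820 to 2.40 FPKM. *lev-1* was at 1.42 to 2.91, 2.30 to 3.75 and 1.59 to 4.33 FPKM. *lev-8* was at 1.80 to 3.18, 2.43 to 2.48 and 0.931 to 3.07 FPKM, and its difference between *daf-1* and the double mutants passed the adjusted p but not 2-fold (log2 fold change 0.95, adjusted p = 0.0323). Without double mutant replicate 2 it was called (1.19, adjusted p = 0.0330). All 4 had overlapping ranges in the 3 genotypes when 9 libraries were compared. Their log2 fold changes in *daf-1* vs. N2 were 0.04 for *unc-29*, 0.14 for *lev-8*, 0.26 for *unc-63* and 0.52 for *lev-1*.

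The ratio of *unc-38* to the mean of these 4 subunits, a measure chosen after the values were seen, was 0.766, 0.764 and 0.855 in N2, 2.2, 1.70 and 1.58 in *daf-1* and 0.557, 0.616 and 0.972 in the double mutants. The *daf-1* libraries had the 3 highest ratios, without overlap, also with replicate 3 of the double mutants. The mean ratio was 1.82 (SD 0.329, n = 3) in *daf-1* and 0.795 (SD 0.0520, n = 3) in N2, and a two-sided exact permutation test gave p = 0.1, the smallest that 3 against 3 libraries allow. Against all 3 double mutant libraries (mean 0.715, SD 0.225) the exact permutation p was also 0.1. The ratio restates the values above and is given as a description.

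*unc-38* has a neighbor with a similar order of the genotypes. F21F3.3, named *icmt-1* in the current annotation for a methyltransferase of prenylated proteins, lies at I: 4901918 to 4903264 on the plus strand, so that the 2 genes are transcribed away from each other with 943 bases between them. F21F3.3 was at 1.69, 1.06 and 3.46 FPKM in N2, 51.8, 19.7 and 35.4 in *daf-1*, and 0.0829, 0.235 and 3.4 in the double mutants. The *daf-1* libraries were the highest in both genes, and among them replicate 1 was the highest and replicate 2 the lowest in both. Expression of F21F3.3 differed by a log2 fold change of 3.98 against N2 (SE 0.442, adjusted p = 0.000700) and 6.37 against the double mutants (SE 0.494, adjusted p = 0.000392), and both calls held with all 9 libraries (adjusted p = 0.0248 and 0.0214). On the other side F21F3.4 overlaps the end of *unc-38* by 22 bases on the opposite strand, and it was lower in *daf-1* libraries (3.68 to 4.24 FPKM) than in N2 (6.53 to 7.09) and the double mutants (4.65 to 7.26). F21F3.4 differed by less than 2-fold (log2 fold change −0.74 against N2, adjusted p = 0.00817).

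**Figure D2:**
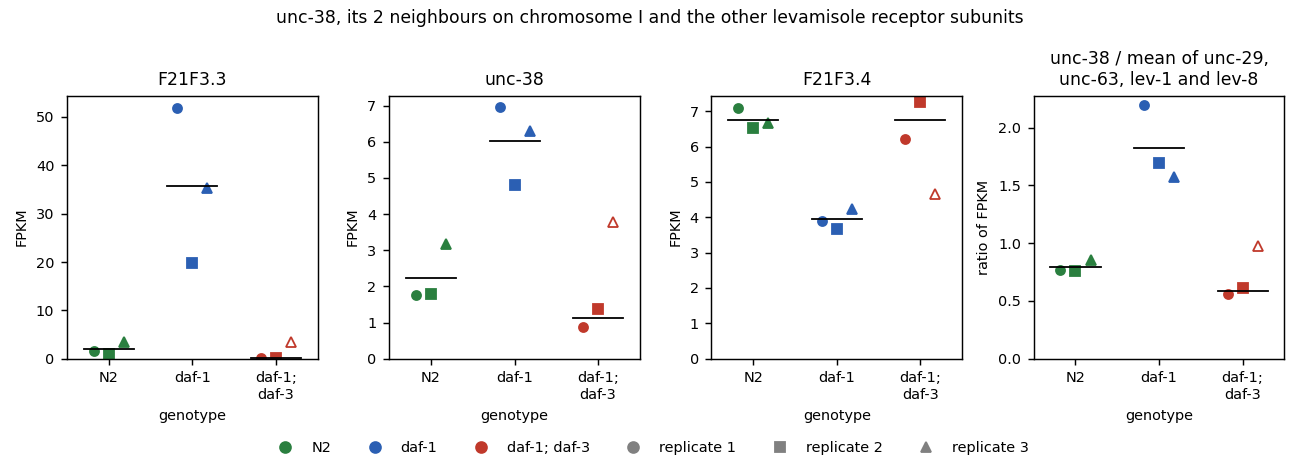
FPKM values of F21F3.3, *unc-38* and F21F3.4 and the ratio of *unc-38* to the mean of *unc-29*, *unc-63*, *lev-1* and *lev-8* (vertical axes from 0) in each library by genotype, with bars for means and an open triangle for double mutant replicate 3, which is not in the mean. The *daf-1* libraries are the highest in F21F3.3 (19.7 to 51.8 FPKM), in *unc-38* and in the ratio (1.58 to 2.2), and the lowest in F21F3.4 (3.68 to 4.24 FPKM).

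Among the other nicotinic subunits, *eat-2* rose in *daf-1* mutants. *eat-2* encodes a subunit of the acetylcholine receptor of pharyngeal muscle that sets the rate of pumping, and lies at II: 14166878 to 14171658. Its FPKM values were 0.200, 0.212 and 0.356 in N2, 0.531, 0.880 and 0.943 in *daf-1*, and 0.309, 0.377 and 1.13 in the double mutants. The *daf-1* libraries were all above N2, and replicate 3 of the double mutants was the highest of the 9. Of the 8 libraries only those of *daf-1* reached 0.5 FPKM, so *eat-2* was tested through the genotype where it was high. Its call is given as a description with that limit. Against N2 the log2 fold change was 1.02 (SE 0.296, adjusted p = 0.0354), with 0.80, 1.29 and 0.98 within batches 1, 2 and 3. The estimate lay just above 2-fold. The call was lost with all 9 libraries (adjusted p = 0.115) and without N2 replicate 1, N2 replicate 2, *daf-1* replicate 2 or *daf-1* replicate 3 (adjusted p = 0.0946 to 0.121). Against the double mutants the log2 fold change was 0.78 (adjusted p = 0.0922).

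Of 6 markers of pharyngeal muscle, 5 were DEGs higher in *daf-1* vs. N2 (*myo-1*, *myo-2*, *myo-5*, *tnc-2* and *tnt-4*), against 6.27% of all entries. The median log2 fold change over the list was 1.05. Against the double mutants 3 were higher in *daf-1* (*myo-2*, *myo-5* and *tnt-4*), against 11.2% of all entries. With all 9 libraries none was called in either dataset (3.97% and 0.640% of all entries higher). The summed level of the 6 markers was 82.9 to 146.9 FPKM in N2, 185.5 to 263.7 in *daf-1* and 79.6 to 286.7 in the double mutants. The part of the marker change in that of *eat-2* was not tested.

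*acr-12* encodes a subunit of acetylcholine receptors in motor neurons, at X: 13532853 to 13536459. It was at 0.649, 0.774 and 0.958 FPKM in N2, 1.01, 1.73 and 1.1 in *daf-1*, and 0.347, 0.589 and 1.65 in the double mutants. The *daf-1* libraries were above N2 and above replicates 1 and 2 of the double mutants, while double mutant replicate 3 lay within their range. Against the double mutants the log2 difference was 1.08 (SE 0.319, adjusted p = 0.0306), and with all 9 libraries 0.61 (adjusted p = 0.371). The *acr-12* call was lost without *daf-1* replicate 2 or 3 or double mutant replicate 1 (adjusted p = 0.0898, 0.0680 and 0.176). *acr-9*, a nicotinic subunit at X: 13642313 to 13646898, was at 0.374, 0.326 and 0.783 FPKM in N2, 0.473, 0.892 and 0.962 in *daf-1*, and 0.195, 0.220 and 0.725 in the double mutants. Its replicates 1 and 2 of the double mutants were the lowest libraries, and the log2 fold change against the double mutants was 1.13 (SE 0.382, adjusted p = 0.0469). The *acr-9* call was lost with batch as a block (0.93, adjusted p = 0.0783) and with all 9 libraries (adjusted p = 0.289). It was also lost without N2 replicate 1 or 2, *daf-1* replicate 2 or 3, or double mutant replicate 1 or 2 (adjusted p = 0.0574, 0.0561, 0.117, 0.133, 0.173 and 0.0949).

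*acr-16*, the subunit of the nicotine-sensitive receptor of body wall muscle, was at 1.60 to 1.99 FPKM in N2, 1.90 to 2.66 in *daf-1* and 1.52 to 2.26 in the double mutants, and its ranges overlapped in all 3 datasets. Its log2 fold change in *daf-1* vs. N2 was 0.32, with a 95% interval of −0.16 to 0.79, which lies within 2-fold. *deg-3*, a subunit of a choline receptor, was at 0.503 to 0.851, 0.763 to 1.03 and 0.471 to 1.41 FPKM in the 3 genotypes. Its partner *des-2* begins 112 bases from it and shares an entry with T26H10.2, which was at 0.493 to 0.699, 0.797 to 1.35 and 0.460 to 1.38 FPKM. *acr-20*, of the same group as *deg-3*, passed the adjusted p against the double mutants at less than 2-fold (log2 fold change 0.94, adjusted p = 0.0433).

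The acetylcholine-gated chloride channels *lgc-46* and *lgc-47* were the only 2 of the 4 relatives in this group to be tested, and both were lower in the double mutants than in *daf-1*. *lgc-47* (X: 9801081 to 9807662) was at 1.3, 1.99 and 3.63 FPKM in N2, 2.34, 3.52 and 4.53 in *daf-1*, and 0.948, 1.5 and 6.0 in the double mutants. *lgc-46* (III: 1125230 to 1136025), which acts in motor neurons, was at 0.351, 0.826 and 1.43 FPKM in N2, 0.834, 1.17 and 1.94 in *daf-1*, and 0.312, 0.331 and 2.36 in the double mutants. Both had their highest library in double mutant replicate 3, and N2 and *daf-1* overlapped. The log2 fold changes against the double mutants were 1.31 for *lgc-47* (SE 0.416, adjusted p = 0.0383) and 1.39 for *lgc-46* (SE 0.467, adjusted p = 0.0457), and 0.61 and 0.66 with all 9 libraries (adjusted p = 0.510 and 0.503). Without N2 replicate 2, *daf-1* replicate 2, *daf-1* replicate 3 or double mutant replicate 1 both calls were lost (adjusted p = 0.0557 to 0.211 for *lgc-47* and 0.0654 to 0.170 for *lgc-46*), and that of *lgc-46* also without double mutant replicate 2 (0.102). *lgc-46* lies wholly inside *acsd-1* on the opposite strand, whose entry Y71D11A.3 was at 4.12 to 6.78 FPKM. Whether the counting used strand is not given in the sources used here, and without strand reads of the 2 genes could not be told apart.

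Of the 5 GABA receptor genes with their own entry, 2 (*exp-1* and *lgc-38*) were tested with 8 libraries and did not pass the thresholds. *lgc-38* was at 0.283 to 0.635 FPKM in N2, 0.646 to 0.835 in *daf-1* and 0.206 to 1.13 in the double mutants. *exp-1*, a GABA-gated cation channel of the enteric muscles, was at 0.244 to 0.690 FPKM in N2, 0.404 to 0.692 in *daf-1* and 0.223 to 0.672 in the double mutants. *unc-49*, the GABA receptor of body wall muscle, shares an entry with T21C12.12, which was at 4.79 to 9.06, 10.02 to 12.7 and 5.84 to 12.5 FPKM and whose log2 fold change in *daf-1* vs. N2 was 0.76 (adjusted p = 0.0428, below 2-fold). Among the channels gated by amines, the serotonin receptor *mod-1* was at 0.590 to 0.862, 0.723 to 1.03 and 0.564 to 1.55 FPKM, and *lgc-50*, also gated by serotonin, at 1.13 to 1.56, 1.39 to 2.26 and 1.08 to 2.85 FPKM. The tyramine-gated channel *lgc-55* was at 0.855 to 2.51 FPKM in N2, 1.32 to 2.76 in *daf-1* and 0.556 to 3.33 in the double mutants. All 3 overlapped between N2 and *daf-1*. *lgc-55* had a log2 fold change of 1.17 against the double mutants that did not pass (adjusted p = 0.0605).

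Of the glutamate receptor genes, *glr-1* was lower in the double mutants than in *daf-1*, and none was called in *daf-1* vs. N2. *glr-1* (III: 8584163 to 8588642) encodes an AMPA-type subunit of the command interneurons. Its FPKM values were 0.556, 0.678 and 1.55 in N2, 0.993, 1.22 and 1.42 in *daf-1*, and 0.170, 0.357 and 1.63 in the double mutants. Replicates 1 and 2 of the double mutants were the lowest of the 9 libraries and their replicate 3 was the highest. The log2 fold change of *daf-1* against the double mutants was 1.52 (SE 0.397, adjusted p = 0.0208) and, with all 9 libraries, 0.89 (adjusted p = 0.327). The call was lost without *daf-1* replicate 2 or 3 or double mutant replicate 1 (adjusted p = 0.0541, 0.0684 and 0.131). Its partner *glr-2* was at 0.459 to 0.786, 0.773 to 1.07 and 0.424 to 1.13 FPKM and was not called.

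*nmr-2*, an NMDA-type subunit at V: 15006341 to 15011660, did not follow the other channel genes. It was at 13.8, 17.5 and 13.3 FPKM in N2, 13.4, 14.3 and 11.8 in *daf-1*, and 18.2, 16.0 and 15.8 in the double mutants. The *daf-1* libraries were below all 3 double mutant libraries and overlapped N2, with a log2 fold change against the double mutants of −0.37 (unadjusted p = 0.0371, limma, adjusted p = 0.0816). *nmr-2* had a level far above that of *glr-1* and of *nmr-1*, whose joined entry was at 0.0381 to 0.137 FPKM. Its end overlaps by 60 bases that of *hrde-2* on the opposite strand, which is part of a joined entry at 42.7 to 68.0 FPKM, and the part of that gene in the level of *nmr-2* was not tested. *glr-4* has the same limit, since C06A8.3 (*srlf-1*), at 756 to 1306 FPKM, lies inside it on the opposite strand, while *glr-4* was at 0.773 to 1.66 FPKM. Other genes named here share it. *lgc-54*, at 0.230 to 1.09 FPKM, overlaps T15B7.1 (17.1 to 28.0 FPKM) on the opposite strand by 3871 bases. *acr-16*, *acr-20* and *lgc-50* overlap by 43, 71 and 46 bases genes whose entries were at 103 to 162, 68.6 to 110 and 79.5 to 136 FPKM. The part of these genes was not tested.

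The remaining lgc genes include those with the largest differences. *lgc-20*, *lgc-21* and *lgc-22* code for Cys-loop channels whose ligand is not given in the sources used here, and they lie on 3 chromosomes. *lgc-22* (IV: 4301306 to 4304448), the channel gene of the highest level, was at 15.7, 18.1 and 32.3 FPKM in N2, 28.3, 32.2 and 34.9 in *daf-1*, and 8.19, 11.3 and 46 in the double mutants. Replicates 1 and 2 of the double mutants were the lowest and replicate 3 the highest of all libraries. The log2 fold change of *daf-1* was 1.70 against the double mutants (SE 0.280, adjusted p = 0.00603) and 0.59 against N2 (adjusted p = 0.101). *lgc-22* also fell by 1.11 in the double mutants vs. N2 (SE 0.280, adjusted p = 0.0292), a call that was lost as the change came below 2-fold with batch as a block (−0.92, adjusted p = 0.0237) and without N2 replicate 3 (−0.80), and that did not pass without replicate 1 or 2 of the double mutants (adjusted p = 0.147 and 0.0577).

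*lgc-21* (X: 14064313 to 14067984) was at 1.40, 2.68 and 6.22 FPKM in N2, 5.16, 6.64 and 9.45 in *daf-1*, and 0.430, 1.15 and 10.6 in the double mutants. Within each genotype replicate 1 was the lowest and replicate 3 the highest. The log2 fold change against the double mutants, 2.87 (SE 0.553, adjusted p = 0.00873), was the largest of the channel genes. The difference from N2 was 1.18 and was not called (adjusted p = 0.0974), but with batch as a block it was (adjusted p = 0.0181), as was a decrease of 1.32 in the double mutants vs. N2 (adjusted p = 0.0309, and 0.0707 without the block). It was also called in *daf-1* vs. N2 without N2 replicate 3 (1.70, adjusted p = 0.0196) and in the double mutants vs. N2 without N2 replicate 1 (−2.16, adjusted p = 0.0240). Within batch 3 alone *daf-1* was 0.17 below the double mutants on the log2 scale.

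*lgc-20* (II: 11340061 to 11343610) was at 0.933, 1.76 and 2.10 FPKM in N2, 1.44, 1.78 and 2.24 in *daf-1*, and 0.352, 0.341 and 2.45 in the double mutants. N2 and *daf-1* overlapped, and the 2 double mutant libraries stood below both. It fell by 1.57 in the double mutants vs. N2 (SE 0.341, adjusted p = 0.0164) and was 1.78 higher in *daf-1* than in the double mutants (SE 0.341, adjusted p = 0.00859). The decrease from N2 was not called without replicate 1 or 2 of the double mutants (adjusted p = 0.0609 and 0.0706). With all 9 libraries the adjusted p values of *lgc-20*, *lgc-21* and *lgc-22* against the double mutants were 0.296, 0.292 and 0.313. Without replicate 1 of the double mutants, which leaves 1 library of that genotype, the calls of *lgc-20*, *lgc-21* and *lgc-22* against them were lost. Fewer of all entries were called higher in that fit as well. When each of the 8 libraries was left out in turn, the log2 fold changes of the 3 genes were 1.64 to 1.91, 2.35 to 3.39 and 1.47 to 1.92.

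*lgc-34* (II: 526574 to 530374) was measured at 7.10, 8.59 and 9.68 FPKM in N2, 11.2, 11.3 and 15.2 in *daf-1*, and 7.35, 7.98 and 9.68 in the double mutants. It was higher in every *daf-1* library than in any other, double mutant replicate 3 included, by less than 2-fold. Its log2 fold change was 0.55 against N2 (SE 0.164, adjusted p = 0.0379) and 0.68 against the double mutants (SE 0.184, adjusted p = 0.0231), and 0.55 and 0.57 with all 9 libraries (adjusted p = 0.0857 and 0.164). *lgc-34*, *unc-38*, *lgc-4* and *lgc-54* were the 4 genes whose *daf-1* libraries lay above all 3 double mutant libraries, where 7.72% of all entries tested did so, and *nmr-2* was the only gene with the reverse order (15.1% of all entries). *lgc-26* and *lgc-33* passed the adjusted p against the double mutants at less than 2-fold (0.0238 and 0.0281). *lgc-32* was at 8.74, 10.1 and 4.72 FPKM in the double mutants, so that here replicate 3 was the lowest. The entry that holds *lgc-27* together with a piRNA gene was at 5.51, 7.19 and 15.3 FPKM in N2, 9.41, 9.56 and 12.1 in *daf-1*, and 2.0, 2.33 and 13.4 in the double mutants, and it was called in both datasets with the double mutants (log2 fold change 2.13 for *daf-1*, adjusted p = 0.00658, and −1.86 for the double mutants vs. N2, adjusted p = 0.0110). Both calls of this entry were lost with all 9 libraries (1.3 and −1.03, adjusted p = 0.273 and 0.509).

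Beyond the calls, most tested channel genes were displaced to the same side. In *daf-1* vs. N2, 46 of 51 (90.2%) had a positive log2 fold change, against 50.9% of all entries tested, and the median was 0.32 against 0.02. Quantile normalization moved the median of all entries to −0.10 and turned the median of the channel genes to −0.08, with 20 of 51 (39.2%) positive against 40.1% of all entries, so the common direction depends on the scaling. The 5 genes with negative values were *nmr-2*, *lgc-10*, *lgc-40*, *acr-11* and *acr-18*. The medians within batches 1, 2 and 3 were 0.40, 0.37 and 0.21. All *daf-1* libraries were above all N2 libraries in 11 of the 51 genes (*unc-38*, *eat-2*, *acr-12*, *acr-20*, *lgc-4*, *lgc-26*, *lgc-30*, *lgc-32*, *lgc-33*, *lgc-34* and *lgc-38*), near the 22.2% of all entries, and below them in 0, against 29.2%. With the 9 libraries' set of 54 genes the counts were also 11 and 0, against 22.1% and 28.9% of all entries.

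In *daf-1* vs. the double mutants, 46 of 51 were positive (50.0% of all entries), with a median of 0.67 against 0.00, and all *daf-1* libraries were above both double mutant libraries in 36 genes (30.3% of all entries) and below them in 4 (33.2%). With batch as a block the median was 0.51, after quantile normalization it was 0.05, against −0.09 for all entries, and with all 9 libraries it was 0.38. The medians within batches were 0.70, 0.51 and −0.12, so the displacement was seen in batches 1 and 2 and not in batch 3. The double mutants vs. N2 had 42 of 51 negative, with a median of −0.30 against 0.02 for all entries. The median was −0.15 with batch as a block (38 of 51 negative), −0.13 after quantile normalization (37 of 51) and −0.01 with all 9 libraries. Their libraries lay below N2 in 17 genes (22.3% of all entries) and above in 1 (20.6%), and with all 9 libraries in 2 genes (6.92%) and 0 genes (11.5%). The datasets share libraries, so these medians are not independent of each other.

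**Figure D3:**
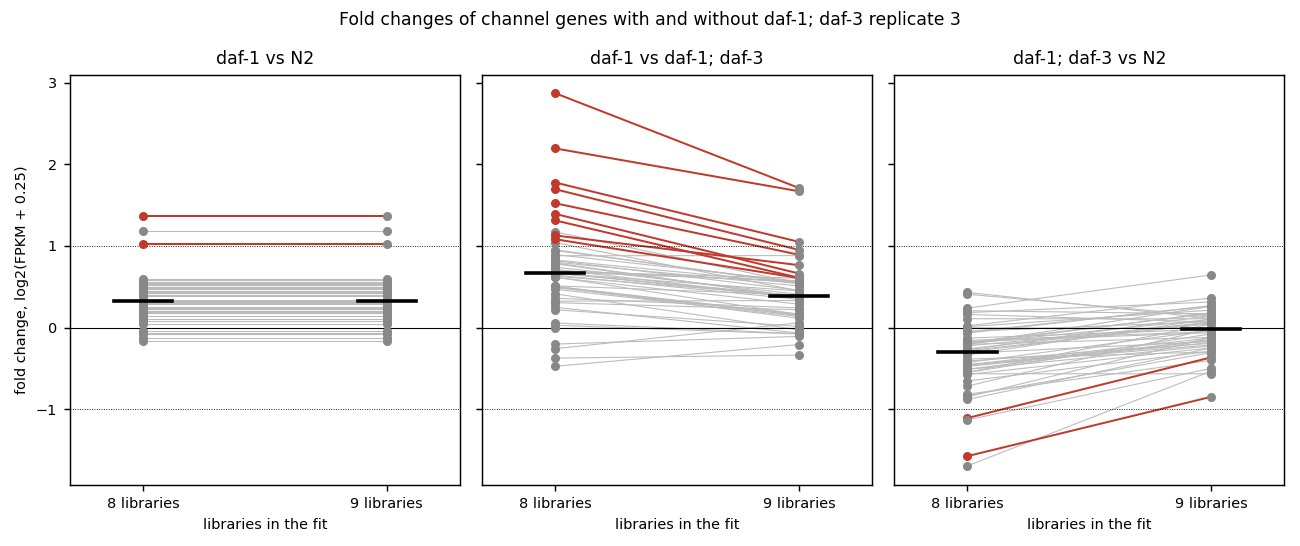
Log2 fold change (vertical axis, on log2(FPKM + 0.25)) of each channel gene tested with both 8 and 9 libraries, with lines joining the values of a gene, red for genes called with 8 libraries, black bars for medians and dotted lines at 2-fold. In *daf-1* vs. N2 the values are the same in both fits, and in the other 2 panels adding double mutant replicate 3 moves the medians of 0.67 and −0.30 toward 0.

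The replicates of a genotype also differed in a common direction. Among the 54 genes tested with 9 libraries, replicate 3 was the highest of its genotype in 45 genes in N2, 36 in *daf-1* and 46 in the double mutants, where 35%, 31% and 40.0% of all entries tested were. Replicate 3 of the double mutants was the highest of all 9 libraries in 27 genes (20.7% of all entries), among them *glr-1*, *lgc-20*, *lgc-21*, *lgc-22*, *lgc-46*, *lgc-47* and *eat-2*, and replicate 1 of the double mutants was the lowest in 32 (19.2%). The summed FPKM of the 54 genes was 90.4, 104.9 and 141.6 in N2, 132.9, 145.2 and 166.6 in *daf-1*, and 78.7, 92.1 and 179.8 in the double mutants.

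**Figure D4:**
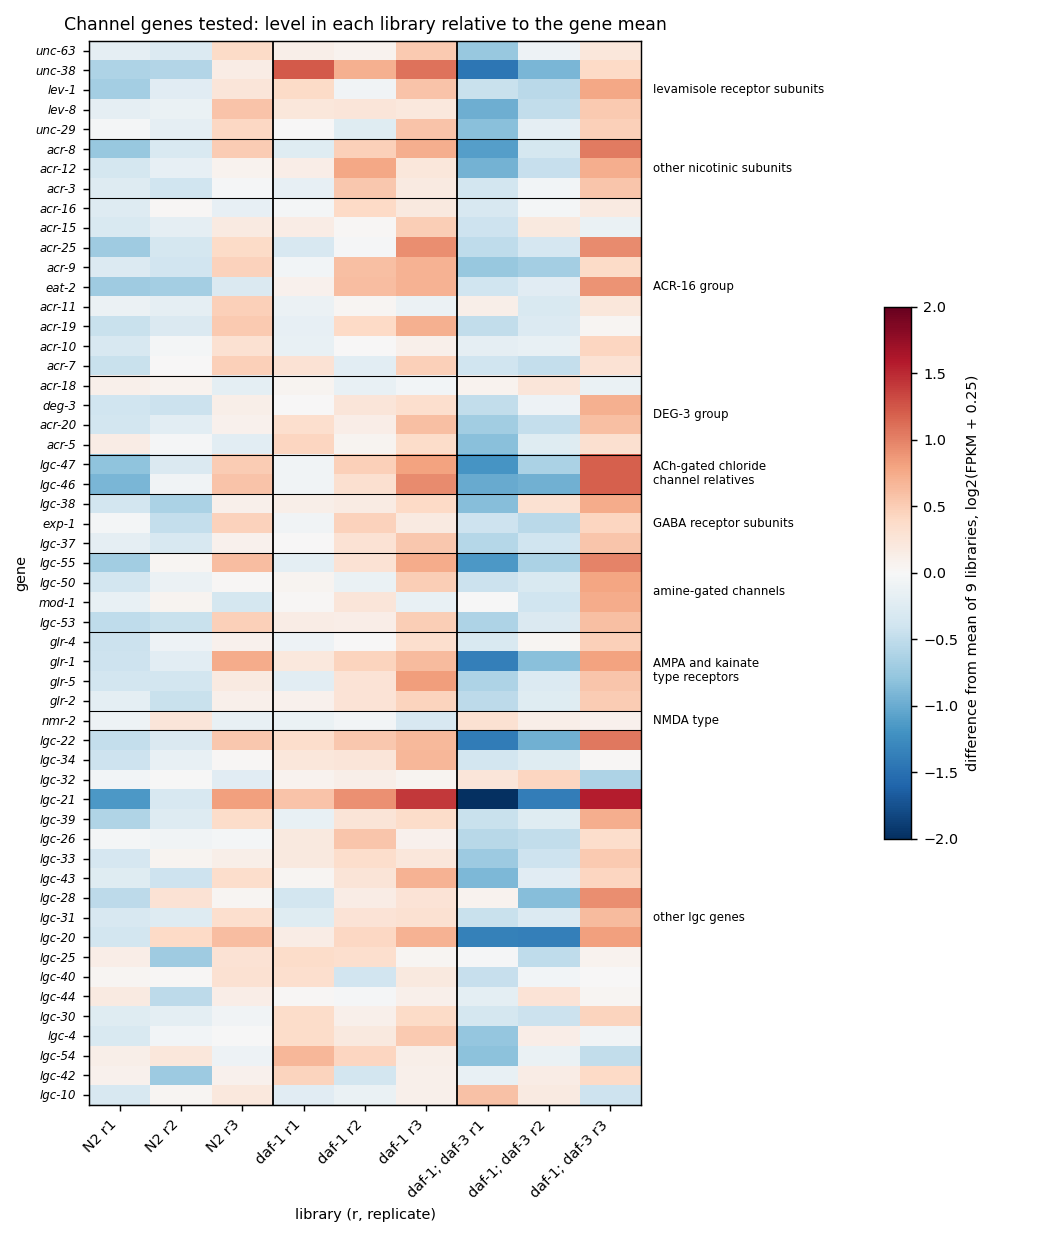
Difference of each library (columns) from the mean of the 9 libraries, on log2(FPKM + 0.25), for the 54 channel genes tested with 9 libraries (rows, grouped by type of receptor), with red above and blue below the mean. Replicates 1 and 2 of the double mutants are blue and their replicate 3 is red in most rows, and *nmr-2* and *lgc-32* are among the rows that do not follow this.

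Marker lists differed in how far they moved with the channel genes across libraries. The mean difference of the tested channel genes from their own mean, on the log2 scale, was −0.33, −0.20 and 0.22 in N2, 0.10, 0.22 and 0.42 in *daf-1*, and −0.58, −0.32 and 0.47 in the double mutants. For 15 neuron markers, genes of synaptic vesicle release and neuropeptide processing, it was −0.53, −0.33 and 0.07, then 0.18, 0.19 and 0.49, then −0.50, −0.25 and 0.69. Both lists were lowest in replicates 1 of N2 and of the double mutants and highest in double mutant replicate 3. Pharyngeal muscle markers were at −0.83, −0.66 and −0.03, then 0.33, 0.48 and 0.83, then −0.94, −0.14 and 0.97. Body wall muscle and intestine markers followed the channel genes only in part. The former were at −0.43, −0.37 and −0.33, then 0.34, 0.48 and 0.32, then −0.47, 0.27 and 0.20. Intestine markers were at 0.08, −0.19 and −0.12, then 0.22, 0.10 and 0.13, then −0.28, −0.15 and 0.21. These means join genes that went opposite ways. In *daf-1* vs. N2 *asp-1* was called higher and *cpr-1* lower (6.27% and 0.953% of all entries). *cpr-1* was also called lower in the double mutants vs. N2 (5.34%). With all 9 libraries only *asp-1* in *daf-1* vs. N2 was called (3.97%). Against the double mutants 4 of the 15 neuron markers (*snt-1*, *rab-3*, *unc-31* and *unc-10*) were called higher in *daf-1* (11.2% of all entries) and 0 with all 9 libraries (0.640%). Against N2 none was, with a median of 0.55. The neuron markers summed to 452.1 to 551.3 FPKM in N2, 576.0 to 636.1 in *daf-1* and 553.4 to 764.9 in the double mutants. A large part of each sum is *snb-1*, at 243 to 306, 249 to 253 and 278 to 337 FPKM. It was highest in double mutant replicate 1, where the mean of the list was low.

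The germline markers took the opposite course, at 0.26, 0.22 and 0.01 in N2, −0.19, −0.28 and −0.29 in *daf-1*, and 0.27, 0.19 and −0.19 in the double mutants. None of the 8 was called. The markers of molting, a larval process, were at −0.15, −0.07 and 0.51 in N2, 0.39, 0.57 and 0.50 in *daf-1*, and −1.37, −1.02 and 0.65 in the double mutants. Of 9 tested, 7 were called higher in *daf-1* than in the double mutants (11.2% of all entries), and 0 with all 9 libraries (0.640%). The same 7 were called lower in the double mutants vs. N2 (5.34%), and 0 with all 9 libraries (0.489%). *nas-37* and *bli-1* were called in neither of these 2 datasets. In *daf-1* vs. N2 *bli-1* alone was called, as higher (6.27% of all entries), and none with all 9 libraries (3.97%). Of the 12 markers listed, *mlt-10*, *mlt-11* and *noah-2* have no entry of their own. *nas-37* was at 6.92 and 9.79 FPKM in replicates 1 and 2 of the double mutants, above N2 (4.60 to 5.65). How much of the differences of the channel genes goes with these markers was not tested.

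**Figure D5:**
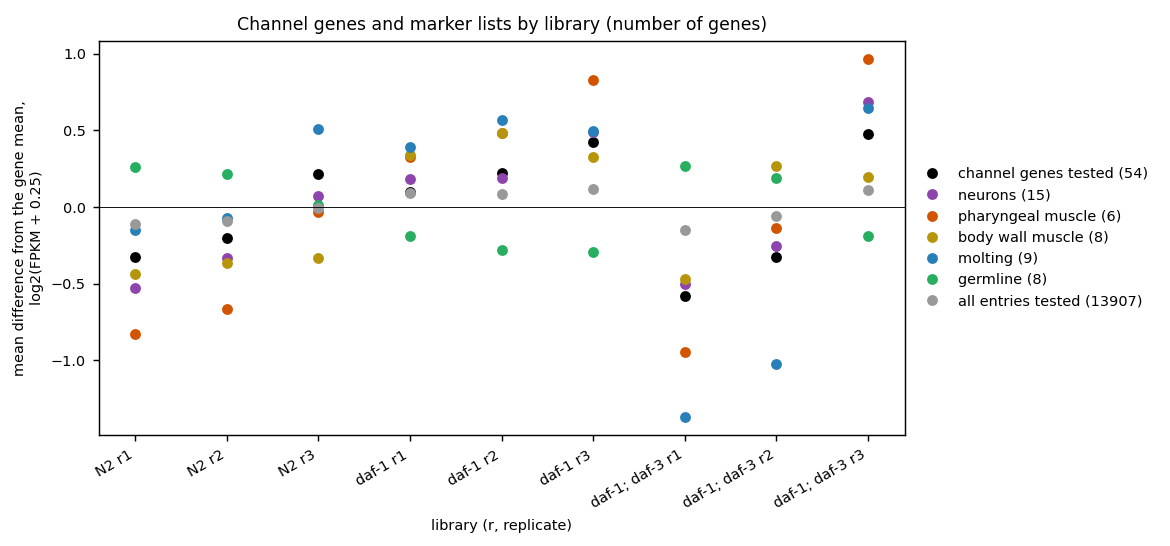
Mean difference from the gene mean on log2(FPKM + 0.25) (vertical axis) in each of the 9 libraries (horizontal axis) for the channel genes tested, 5 lists of markers and all entries tested, with the number of genes of each in parentheses. The channel genes run from −0.58 to 0.47 and the neuron markers from −0.53 to 0.69, while the germline markers lie on the other side of 0 in all libraries but N2 replicate 3.

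A background list held 13 other channel subunits that were tested, 7 genes of glutamate receptor accessory proteins and traffic, 6 of acetylcholine receptor clustering, 2 of receptor assembly and 8 of acetylcholine and GABA supply. In *daf-1* vs. N2 none of these was a DEG, against 6.27% of all entries higher and 0.953% lower. Against the double mutants 11 were higher in *daf-1*, against 11.2% of all entries, and none was lower, against 1.43%. They were *ric-3*, a chaperone of nicotinic receptors (log2 fold change 1.29, adjusted p = 0.0140), *madd-4*, *rpy-1* and *nlg-1*, which organize receptors at synapses, *sol-1* and *stg-2*, auxiliary subunits of GLR-1 receptors (1.66 and 1.39), *acc-4*, an acetylcholine-gated chloride channel subunit, *ace-4*, an acetylcholinesterase gene, and *unc-47*, *unc-46* and *snf-11*, which load or take up GABA (1.54, 1.58 and 1.56). *unc-47* was also lower in the double mutants vs. N2 (−1.24, adjusted p = 0.0425). With all 9 libraries none of these was called. Among the 8 libraries *unc-46* reached 0.5 FPKM only in *daf-1* replicates 2 and 3 (0.591 and 0.714 FPKM). It was at 0 FPKM in replicates 1 and 2 of the double mutants. *stg-2* and *ace-4* reached 0.5 FPKM only in N2 replicate 3 and the *daf-1* libraries. These genes were thus tested through the genotype where they were high.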

How the data were processed

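Whole-worm poly(A)+ RNA was sequenced from 9 libraries. The authors deposited 1 table of FPKM values with 40313 entries, of which 4882 join several gene names, 186 have no name and 346 share a name with another entry. The submitters' processing notes list bcl2fastq 1.8.4, Trim Galore 0.4.0, TopHat2 2.0.12, Cufflinks and the build WBcel235. Whether counting used strand is not given in the sources used here. No table column was left unused, and no read depth was available to this work, so errors are the spread between libraries.

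Entries with at least 0.5 FPKM in 2 of the fitted libraries were tested on log2(FPKM + 0.25) with limma 3.58.1 in R 4.3.3 (moderated, with a variance trend), in a single fit of the 3 genotypes with 8 libraries, double mutant replicate 3 being left out as in the study, and again with 9. Nameless entries were not tested. A call needed 2-fold and p under 0.05 after Benjamini-Hochberg adjustment over every entry tested. Intervals of log2 fold changes are 95% intervals from the same fit. The fit was tested on simulated data.

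The genotypes share batch numbers. Deviations of same-numbered N2 and *daf-1* libraries correlated across entries at 0.124 to 0.225, and those with the double mutants at −0.0567 to 0.0391 with 8 libraries and 0.0868 to 0.520 with 9. The 0.520 is that of replicates 3 of N2 and of the double mutants. Pairs of different number with the double mutants ran from −0.404 to 0.315 with 9 libraries, so the ranges overlap. Because the numbers mark batches, values with batch as a block are given where they change a call. Members and gene lists were chosen with earlier results of these data known. The genes named are all members called, the levamisole receptor subunits, a list of well-studied receptors, the 5 of highest mean and the called genes of the background list; genes that passed the adjusted p alone, those without overlap and the neighbors of *unc-38* were named after their values were seen. Alternatives covered the pseudocount (0.1 and 1), the filter (1 FPKM and none), scaling, the block, the minimum fold, the variance trend, the genotypes fitted and leaving out each library. Median ratio scaling with all 9 libraries was added after seeing the data.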

Additional observations from a re-analysis of the deposited data

How the results depend on the processing

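No fold change of a called channel gene turned its direction under the alternatives run, while the median of the channel genes in *daf-1* vs. N2 did after quantile normalization. The 2 calls in *daf-1* vs. N2 became 1 with a pseudocount of 1, a filter of 1 FPKM, quantile normalization, replicates 1 and 2 alone, and the block with all 9 libraries, and 0 with all 9 libraries, also under median ratio scaling, a setting chosen after seeing the data. They ranged from 0 to 3 when each library was left out. The 9 higher calls in *daf-1* vs. the double mutants became 4 with a pseudocount of 1 and 4 with quantile normalization, which also gave 1 lower call. They became 5 with replicates 1 and 2 alone, 14 without a minimum fold, and 0 with all 9 libraries, with or without the block or median ratio scaling, and they ranged from 1 to 11 when each library was left out. The 2 lower calls in the double mutants vs. N2 became 1 with a pseudocount of 1, without a filter, with only the 2 genotypes compared and without a variance trend, and 0 with replicates 1 and 2 alone and with all 9 libraries, with or without the block or median ratio scaling. They reached 3 without N2 replicate 1. Fewer channel genes and fewer of all entries were called lower without double mutant replicate 1 or 2. With batch as a replicate block the 8 libraries gave 3, 8 and 2 calls in these datasets. The share of all entries called moved too. In *daf-1* vs. N2, 6.27% were higher, 4.31% with a pseudocount of 1 and 5.17% with replicates 1 and 2 alone. A filter of 1 FPKM gave 6.20%. Against the double mutants 11.2% were higher, 7.41% with a pseudocount of 1 and 9.34% with replicates 1 and 2 alone. In the double mutants vs. N2, 5.34% were lower, 3.36% with that pseudocount and 3.49% with these replicates. Lower shares there were 2.97% without a filter, 3.99% with only the 2 genotypes compared and 4.93% without a variance trend. Leaving out an N2 or *daf-1* library gave 3.92% to 8.92% higher in *daf-1* vs. N2. It gave 6.78% to 11.7% higher against the double mutants and 3.84% to 6.60% lower in the double mutants vs. N2. The causes were not tested. Most channel genes lie near the FPKM minimum and the double mutants have 2 libraries in the 8, which limits precision.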
